A study of Equus caballus with 12 samples.

Results

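The miR-148 and miR-152 family was examined in small RNA libraries from horse lung, heart and liver. Its members were taken by name, as every entry called eca-miR-148 or eca-miR-152 with any letter or arm suffix. The rule returned 2 of the 294 known horse miRNAs in the table, eca-miR-148a and eca-miR-148b-5p (below miR-148a and miR-148b-5p), and both passed the filter on low values that left 256 known miRNAs for testing. The miR-148b-3p arm and miR-152 were not analysed here under those names. A further 335 entries of the table are named only by their sequence, and 2 of these carry the seed of the family.

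MicroRNAs pair with messenger RNAs mainly through the seed, the bases near their 5′ end, and lower the output of those messenger RNAs. In mammals miR-148a, miR-148b-3p and miR-152 are produced from separate genes and share a seed, and in human and mouse cells they are known to repress DNA methyltransferase genes such as DNMT1. Human and mouse miR-148a is abundant in the liver, where it is known to act on ABCA1, which encodes a cholesterol exporter. miR-148b-5p is the product of the opposite arm of the miR-148b hairpin and has a different seed.

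The study compared the methylome, transcriptome and miRNAome of the tissues of healthy cold-blooded stallions aged 1 to 2 years, and the small RNA libraries are described here. Tissue came from the caudal lobe of the right lung, the left ventricle of the heart and the right lobe of the liver of the same 4 horses, numbered 27, 30, 32 and 34, so that each tissue had 4 libraries, 1 per horse. Material was collected at a slaughterhouse and kept in an RNA preservative, and no treatment or genetic change was involved. All of these are pieces of whole tissue, in which more cells of a type and more RNA per cell cannot be told apart.

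In the gene annotation of RefSeq for the horse assembly TB-T2T, MIR148A is on chromosome 4, overlaps no other gene and has NPVF and NFE2L3 as its nearest coding neighbors. MIR148B is on chromosome 6 and overlaps COPZ1, which encodes a subunit of the coatomer coat of transport vesicles. Their annotated hairpins are 68 and 83 bases long. The authors mapped to another assembly, so no position is given.

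Both entries with the family seed at bases 2 to 8 are shown because they are the only mature sequences of this kind that the table spells out. The seed is in capitals, 5′ to 3′.
18-base entry: uCAGUGCAugacagaacu
19-base entry: uCAGUGCAcuacacaacau
The entries are identical over their first 8 bases. The 18-base entry was above 0 in all 12 libraries, whereas the 19-base entry was above 0 in 1 library, the liver of horse 34, at 29.7 normalized counts. A length of 18 bases was also the shortest that the authors kept when they trimmed the reads. The table does not say from which gene either entry comes, so both are named by length, and neither was counted as a member. The entries were not compared with reference sequences of the family. Whether either is a shortened form of a family member, miR-148b-3p and miR-152 included, was therefore not settled. The values of the 18-base entry may thus be those of a family member. A single other entry held the same letters elsewhere in its sequence.

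The values below are normalized counts, that is, reads divided by a size factor for each library. The total of the table, in reads implied by the smallest value above 0 and the minimum of 6 reads set by the authors, was 3536536 to 7560746 in lung, 8113895 to 9355513 in heart and 3066869 to 8595569 in liver. Counting error at these depths was at most 0.65% (coefficient of variation) for miR-148a and 1.37 to 2.84% for miR-148b-5p, and it covers counting only. The labelled tissues carried their markers. The summed counts of the 6 striated muscle miRNAs were 8693 to 12572 in lung, 5460419 to 8413935 in heart and 1511 to 6447 in liver. Those of the 3 hepatocyte miRNAs were 633 to 2565 in lung, 847 to 3278 in heart and 983907 to 1394321 in liver, and miR-885-5p of that list was at 0 in all lung libraries. Those of the 8 lung epithelium miRNAs were 85166 to 121078 in lung, 305 to 1333 in heart and 5441 to 7487 in liver. Of the striated muscle list, miR-208a was at 0 in the heart of horses 30, 32 and 34 and in all lung and liver libraries.

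miR-148a was a liver-high miRNA in these horses. It had 57806, 115997, 278539 and 79191 normalized counts in the lung of horses 27, 30, 32 and 34. In the heart it had 29879.7, 59535, 81376 and 149991 normalized counts in the same order of horses. In the liver it had 503225, 415777, 359262 and 601914 normalized counts. Each liver library was thus above each lung and each heart library, while the lung and heart libraries overlapped, with the highest lung value in horse 32 and the highest heart value in horse 34. Means of 132883 ± 100034 in lung, 80195 ± 51092 in heart and 470044 ± 106001 in liver were obtained (SD, n = 4 each). The spread between horses was wide in lung and heart, where the highest library was 4.82 and 5.02 times the lowest, and narrow in liver at 1.68 times.

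As a share of all values of the table, miR-148a took 1.16 to 5.25% in lung, 0.294 to 0.979% in heart and 8.03 to 10.6% in liver. Among the known miRNAs of a library it ranked 5 to 17 in lung, 15 to 28 in heart and 4 in each liver library. It was therefore among the major miRNAs of the liver in all 4 horses.

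**Figure D1:**
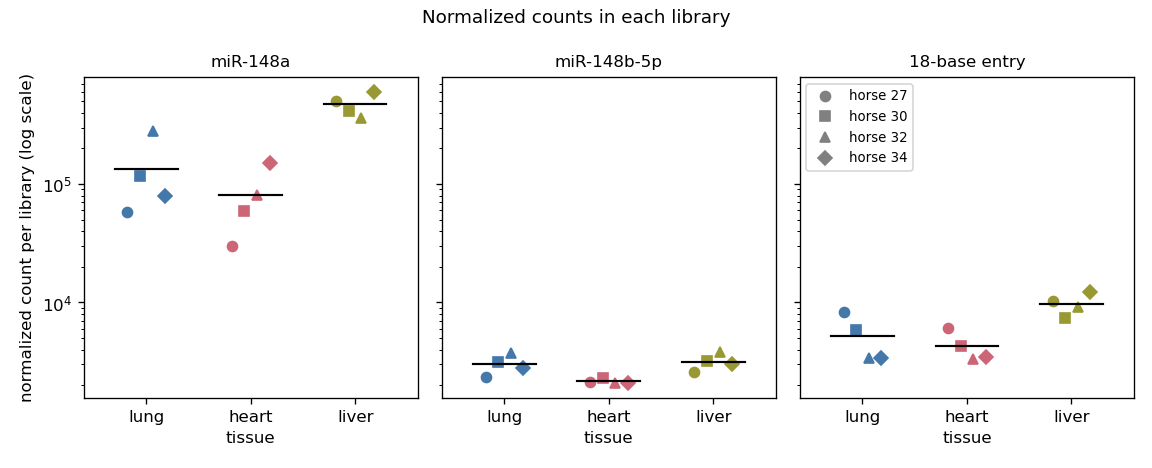
Normalized counts of miR-148a, miR-148b-5p and the 18-base entry with the family seed in each library (log axis) by tissue, with a symbol for each horse and a line at the mean of 4 libraries. The miR-148a values of liver, 359262 to 601914, lie above all those of lung and heart, whereas miR-148b-5p stays between 2068 and 3836 in all 12 libraries.

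miR-148a was lower in lung than in liver by a log2 fold change of -2.06 (SE 0.53, adjusted p = 0.0055, limma with Benjamini-Hochberg adjustment), with means 3.54-fold apart. Lung was below liver in 4 of 4 horses. A difference was called where the adjusted p was below 0.05 and the log2 fold change was 1 or more in size, and 26.6% of the 256 known miRNAs were called lower in lung than in liver. Complete separation of the values in this direction was seen in 27.0% of them. The call held without any single horse or library, at -2.63 to -1.71. Without the lung of horse 32, the highest lung library, the difference was -2.51.

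In heart miR-148a was lower than in liver by a log2 fold change of -2.76 (SE 0.53, adjusted p = 0.0009 by limma), with means 5.86-fold apart and heart below liver in 4 of 4 horses. Of the known miRNAs, 27.0% were called lower in heart than in liver, and 32.4% had all heart values below all liver values. The difference was -3.13 to -2.32 when a single horse or library was left out, and it was called in each case. The hepatocyte miRNA sums given above were highest in the liver libraries, as was miR-148a, and their part in both differences was not tested.

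Between lung and heart miR-148a was not called. The log2 fold change was 0.69 (SE 0.53, 95% confidence interval -0.47 to 1.85, adjusted p = 0.309, limma), lung was above heart in 3 of 4 horses, and 38.7% of the known miRNAs were called in either direction. The interval leaves room for a difference larger than the minimum of the call. Without the lung of horse 32 the value was 0.25, and without horse 34 it was 1.23, with an adjusted p of 0.109 to 0.727 over all libraries or horses left out. Leukocyte miRNAs, of which 5 were in the table, summed to 30464 to 89300 in lung, 11350 to 13414 in heart and 12462 to 21814 in liver, with lung sums of 73940, 57612, 89300 and 30464 in horses 27, 30, 32 and 34. Horse 32 was thus highest in both that sum and miR-148a, while horse 27 had the lowest miR-148a of lung and of heart with the next highest leukocyte sum of lung and the highest of heart. The lung sum was mostly miR-146a, which averaged 45410 ± 25190 normalized counts there, beside 9073 ± 3141 for miR-150. The members did not go together. miR-142-5p was at 0 in the lung of horses 32 and 34, and miR-342-5p was lower in lung than in heart (-1.76). The part of the leukocyte miRNAs in the lung values was not tested.

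miR-148b-5p was far less abundant, and more even with the authors' size factors. It had 2352, 3168, 3754 and 2815 normalized counts in the lung of horses 27, 30, 32 and 34. In the heart it had 2142, 2312, 2068 and 2088 normalized counts. In the liver it had 2579, 3177, 3836 and 3023 normalized counts. All lung and all liver libraries were above all heart libraries, and lung and liver overlapped. Lung averaged 3022 ± 592, heart 2153 ± 111 and liver 3153 ± 521 (SD, n = 4 each). Its rank among the known miRNAs was 63 to 79 in lung, 72 to 79 in heart and 62 to 74 in liver.

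Over all 12 libraries the highest value of miR-148b-5p was 1.85 times the lowest, against 20.1 times for miR-148a. The SD of its log2 values was 0.32, which was the rank of 5 from the smallest among 256 known miRNAs, whose median SD was 1.24. That of miR-148a was 1.43, at rank 147. miR-128, which the study used as the endogenous control of its qPCR, had an SD of 0.70 and rank 61. This evenness depended on the scaling. As a share of the table miR-148b-5p ran from 0.0136% in the heart of horse 34 to 0.0857% in the liver of horse 32, which is 6.29 times, and with equal totals the SD of its log2 values was 0.92, at rank 78 among 256, beside 1.80 and rank 189 for miR-148a. Of the 46 known names that give an arm, 44 end in -5p and 2 in -3p, and other lists of the study name both arms of miR-148b. It could not be settled whether the entry named miR-148b-5p holds reads of that arm, of the opposite arm or of both, and all its values carry this doubt.

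No tissue comparison of miR-148b-5p met the requirements of a call. For lung over heart the log2 fold change was 0.47 (SE 0.19, 95% confidence interval 0.06 to 0.88, adjusted p = 0.0599, limma), with lung above heart in 4 of 4 horses, and 22.7% of the known miRNAs had all lung values above all heart values. For lung over liver it was -0.07 (95% confidence interval -0.48 to 0.35, adjusted p = 0.806, limma), with lung below liver in 4 of 4 horses. For heart over liver it was -0.54 (SE 0.19, adjusted p = 0.0312, limma), below the minimum of 1 in size, with heart below liver in 4 of 4 horses. All heart values were below all liver values in 32.4% of the known miRNAs.

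The 18-base entry with the family seed was described in the same way, from a fit over all 629 entries of which 331 passed the filter. It had 8361, 5809, 3378 and 3425 normalized counts in the lung of horses 27, 30, 32 and 34. In the heart it had 6049.5, 4267, 3352 and 3483 normalized counts. In the liver it had 10249, 7386, 9195 and 12165 normalized counts. All liver libraries were above all heart libraries, and the highest lung library exceeded the lowest liver library. Such a separation of heart below liver was seen in 32.4% of the 256 known miRNAs, and its share over all entries was not counted. Lung averaged 5243 ± 2368, heart 4288 ± 1242 and liver 9749 ± 1998 (SD, n = 4 each).

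The 18-base entry was lower in heart than in liver by a log2 fold change of -1.20 (SE 0.31, adjusted p = 0.0080, limma), with heart below liver in 4 of 4 horses, where 24.2% of all entries were called lower in heart. This call was lost without horse 34 (-1.002, adjusted p = 0.0537, limma) and when libraries were scaled to miR-128 (-1.33, adjusted p = 0.165, limma). For lung over liver the value was -0.98 (SE 0.31, adjusted p = 0.0231, limma), just under the minimum of 1 in size. It was called at -1.24 without the lung of horse 27, at -1.06 without the lung of horse 30, at -1.10 without the liver of horse 30, and at -1.21 and -1.19 without horses 27 and 30. For lung over heart the value was 0.22 (95% confidence interval -0.47 to 0.92, adjusted p = 0.606, limma).

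**Figure D2:**
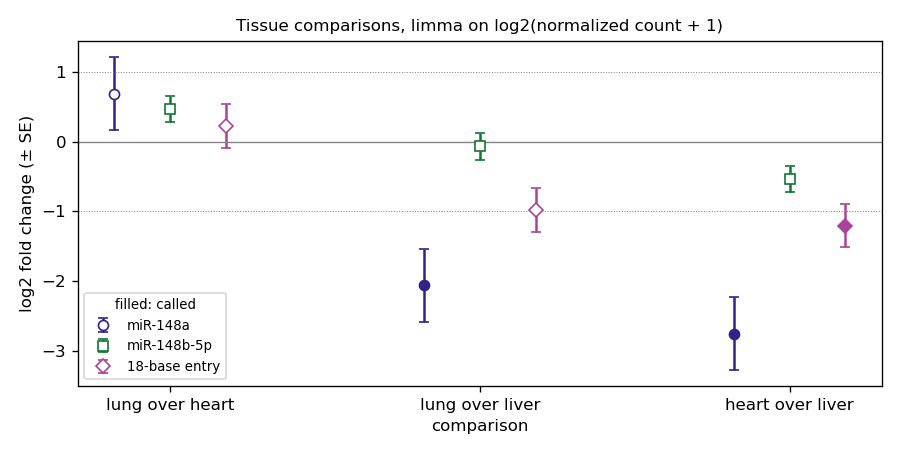
Log2 fold changes with their standard errors from limma for miR-148a, miR-148b-5p and the 18-base entry in the 3 comparisons, with filled symbols for called differences and dotted lines at the minimum of 1 in size. miR-148a is called against liver in lung (-2.06) and heart (-2.76), and miR-148b-5p stays between -0.54 and 0.47.

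In lung and in heart the entry and miR-148a ordered the horses differently. There, horse 27 had the lowest miR-148a and the highest level of the entry, and horse 32 had the lowest level of the entry. In liver both were highest in horse 34 and next highest in horse 27, and the log2 ratio of miR-148a to the entry varied little there (SD 0.22) beside lung (1.47) and heart (1.33). After the mean of each tissue was removed, the Pearson r between them was -0.58 over 12 libraries. For miR-148a and miR-148b-5p it was 0.36, and for miR-148a and miR-128 it was 0.82. Over the other tested known miRNAs this r with miR-148a ran from -0.93 (miR-107b) to 0.88 (miR-7), with a median of 0.01. These values are descriptions, and the points of a library share its size factor and depth.

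A ratio of a pair of features within a library does not depend on the size factor. The miR-148a to miR-148b-5p ratio was 24.6, 36.6, 74.2 and 28.1 in the lung of horses 27, 30, 32 and 34. It was 13.9, 25.7, 39.3 and 71.8 in the heart. In the liver it was 195, 131, 93.6 and 199. All liver ratios were above all lung and all heart ratios. On the log2 scale the ratio averaged 5.21 ± 0.71 in lung, 4.99 ± 0.997 in heart and 7.21 ± 0.52 in liver (SD, n = 4 each).

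The log2 ratio of miR-148a to miR-148b-5p differed by -1.997 for lung over liver and by -2.22 for heart over liver. Each difference gave an exact two-sided permutation p of 0.0286, the smallest that 4 against 4 libraries allow. The adjusted p was 0.129 over the 9 ratio tests, which is not past 0.05. That adjusted p could pass 0.05 only if most of the 9 tests reached the smallest p, so no conclusion is drawn from it. The lung over heart difference was 0.22 (exact permutation p = 0.771). The ratios of miR-148a to the 18-base entry and of that entry to miR-148b-5p overlapped between tissues in each comparison, with exact permutation p values of 0.0571 to 0.686. Of the summed counts of these 3 features, miR-148a made up 84.4 to 97.5% in lung, 78.5 to 96.4% in heart and 96.5 to 97.5% in liver.

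**Figure D3:**
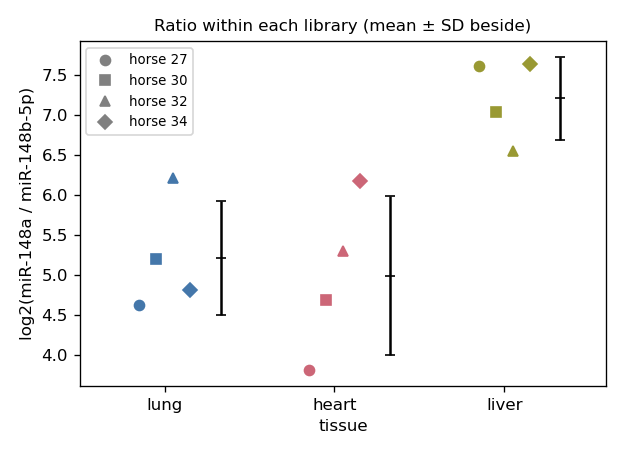
Log2 ratio of miR-148a to miR-148b-5p within each library by tissue, with a symbol for each horse and the mean ± SD of 4 libraries beside them. The liver ratios, 6.55 to 7.64, lie above those of lung (4.62 to 6.21) and heart (3.801 to 6.17).

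The differences also moved with the scaling of the libraries. miR-1 reached 51.1% of a heart library, and miR-148a itself reached 10.6% of a liver library. Against the authors' size factors, equal totals shifted the median fold change of the known miRNAs (log2) by 1.18 for lung over heart, 0.12 for lung over liver and -1.13 for heart over liver. Equal totals without the miRNAs above 10% shifted it by 0.43, -0.31 and -0.80, and scaling to miR-128 by 0.33, 0.28 and -0.07. The authors' size factors gave 50 higher and 49 lower calls in lung over heart, against 120 and 17 with equal totals, 77 and 33 without the miRNAs above 10%, and 46 and 21 with miR-128. In lung over liver they gave 64 higher and 68 lower calls, against 44 and 75 without the miRNAs above 10%. In heart over liver they gave 51 higher and 69 lower calls, against 27 and 136 with equal totals and 34 and 116 without the miRNAs above 10%.

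miR-148a was called lower than liver under each of the 5 scalings, at -1.76 to -2.42 in lung and -2.76 to -3.95 in heart. Its lung over heart difference was called with equal totals (2.02), without the miRNAs above 10% (1.19) and with miR-128 (1.12), and not with TMM, a trimmed mean scaling (0.76). A scaling moves all miRNAs of a library together, so that values relative to the median of all known miRNAs hardly depend on it by construction. On that basis miR-148a was at 0.69 to 0.84 for lung over heart, -2.18 to -2.12 for lung over liver and -2.59 to -2.52 for heart over liver. miR-148b-5p, taken likewise, was at 0.47 to 0.62, -0.19 to -0.12 and -0.37 to -0.31. Without that reference it was called with equal totals in lung over heart (1.80) and in heart over liver (-1.73), and without the miRNAs above 10% in heart over liver (-1.38).

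**Figure D4:**
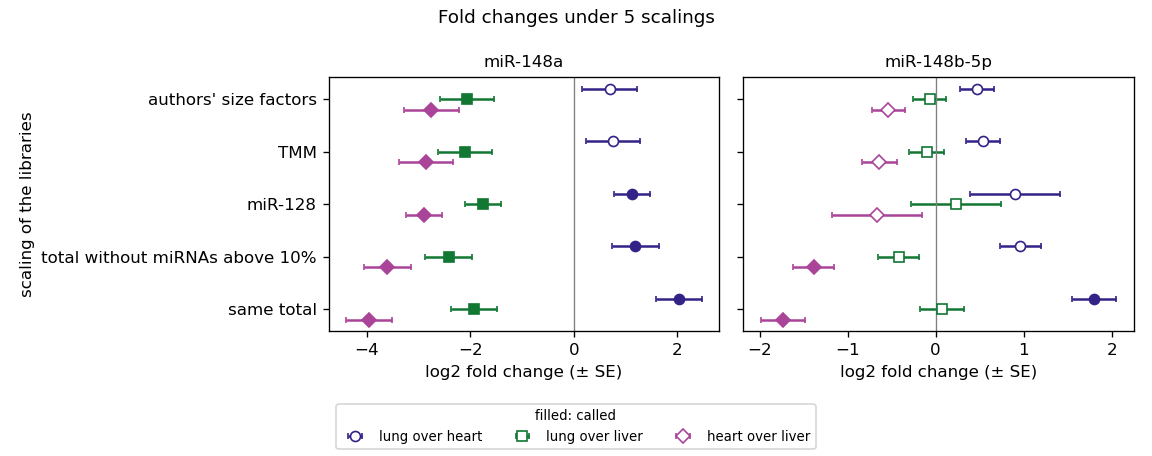
Log2 fold changes with their standard errors for miR-148a (left) and miR-148b-5p (right) under 5 scalings of the libraries, with a color and symbol for each comparison and filled symbols for called differences. miR-148a stays below liver under each scaling, while its lung over heart difference runs from 0.69 to 2.02.

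Known miRNAs whose levels over the 12 libraries were most like those of miR-148a, by Pearson r of log2 values, were miR-8908l (0.895), miR-8908j (0.895), miR-215 (0.885), miR-8908i (0.884) and miR-9143 (0.880). miR-215, a miRNA of liver, gut and kidney in mammals, averaged 36.8 normalized counts in lung, 35.3 in heart and 6274 in liver, and it kept an r of 0.870 with miR-148a after the tissue means were removed. That r was lower for miR-8908l (0.514), miR-8908j (0.536), miR-8908i (0.505) and miR-9143 (0.533). The miR-8908 entries and miR-9143 were listed at 0 in all heart libraries, and the letters of the miR-8908 names mark closely related copies, so that their separate counts are uncertain. Most like miR-148b-5p were miR-8951 (0.868), miR-187 (0.840), miR-21 (0.797), miR-32 (0.773) and miR-340-5p (0.763). Of these, miR-21 averaged 243607 normalized counts in lung, 44288 in heart and 165923 in liver, and miR-8951 and miR-187 were listed at 0 in all heart libraries.

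Of the miRNAs whose seed overlaps that of the family with a shift of 1 base, miR-130a, miR-130b and miR-454 were tested of the 5 listed. In lung over liver 2 were called higher and 0 lower, where 25.0% of all known miRNAs were called higher, with a median log2 fold change of 1.45 against 0.08 over all known miRNAs. In heart over liver 2 were called higher and 0 lower, where 19.9% of all known miRNAs were called higher, with a median of 2.68 against -0.23. In lung over heart 0 were called, with a median of -0.50 against 0.00. The counts moved with the scaling. In lung over liver 1 was called higher with miR-128 scaling and without the miRNAs above 10%. In lung over heart 1 was called higher with equal totals and without the miRNAs above 10%. With so few members nothing particular to this list is read from the counts. miR-130a, the most abundant, averaged 653 ± 206 normalized counts in lung and 282 ± 57.5 in liver, with a difference of 1.17 on the log2 scale (limma, adjusted p = 0.0107). This call was lost without horse 30 (0.96), without the miRNAs above 10% (0.82) and with miR-128 scaling, where the difference was 1.47 with an SE of 0.78 (adjusted p = 0.153, limma). The other calls, named after their values were seen, were miR-454, higher in lung (2.17) and in heart (2.68) than in liver, and miR-130b, higher in heart than in liver (3.62). In liver miR-130b was near the lowest values of the table, at 14.8 ± 11.3 normalized counts with a value of 0 in horse 27. Its heart over liver difference (SE 0.96) was 2.54 to 4.16 without a horse or library.

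Of the miRNAs known in other mammals to target DNA methyltransferase genes, miR-29a, miR-29b, miR-29c and miR-185 were tested of the 5 listed. In lung over heart 1 was called higher, in lung over liver 2 were called higher and in heart over liver 2 were called higher, with 0 called lower and medians of -0.54, 0.98 and 1.005 against 0.00, 0.08 and -0.23 over all known miRNAs. The shares of all known miRNAs called higher were 19.5, 25.0 and 19.9% in these comparisons, and with so few members nothing particular to the list is read from the counts. With equal totals the heart over liver count became 0 higher and 2 lower, with a median of -0.19. miR-29a, the most abundant, averaged 36339 ± 17941 normalized counts in lung and 17399 ± 6612 in heart (1.03, adjusted p = 0.0228, limma), and this call was lost with the horse as a block (adjusted p = 0.0527). It was also lost with miR-128 scaling (1.47, SE 0.65), without horse 27, 32 or 34 (1.05, 1.16 and 0.52), without the lung of horse 34 (0.73), and without the heart of horse 27 (0.95) or 34 (0.82). The calls against liver, named after their values were seen, were those of miR-29b (1.45 in lung and 2.04 in heart) and miR-29c (1.86 in lung and 2.38 in heart). All 4 of these calls were lost under 1 scaling or another, the lung ones without the miRNAs above 10% and the heart ones with equal totals, and both lung calls were lost without horse 34 (1.26 and 1.18) and that of miR-29b also without horse 32 (1.48).

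Of the miRNAs known from human or mouse work on ABCA1 and lipoprotein metabolism, 7 of the 10 listed were in the table and 6 were tested. In lung over heart 0 were called higher and 1 lower, in lung over liver 1 and 1, and in heart over liver 3 and 1, with medians of -0.66, 0.32 and 1.15 against 0.00, 0.08 and -0.23 over all known miRNAs. Of all known miRNAs, 19.5% were called higher and 19.1% lower in lung over heart, 25.0% and 26.6% in lung over liver, and 19.9% and 27.0% in heart over liver. With equal totals the heart over liver counts were 2 higher and 3 lower. miR-122, the dominant hepatocyte miRNA, was the only one of them called on the same side as miR-148a with the authors' size factors, at 1408 ± 872 normalized counts in lung, 1518 ± 1080 in heart and 1129549 ± 177284 in liver (-10.04 in lung and -9.75 in heart against liver). The other calls, named after their values were seen, were miR-27b, higher than liver in lung (1.72) and heart (2.46), miR-130b (given above), and miR-30c, higher in heart than in liver (2.17) and lower in lung than in heart (-1.22). With equal totals miR-30c was at 0.11 in lung over heart and at 0.98 in heart over liver, neither of them called, and with miR-128 scaling and without the miRNAs above 10% its lung over heart call was lost (-0.79 and -0.73).

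The remaining marker lists were described by their counts, to be read beside the same shares of all known miRNAs (19.5% higher and 19.1% lower in lung over heart, 25.0% and 26.6% in lung over liver, 19.9% and 27.0% in heart over liver). Of 5 mesenchymal and smooth muscle miRNAs, 0 were called in lung over heart, 1 higher in lung over liver and 1 higher in heart over liver. Of 5 leukocyte miRNAs, 3 were called higher and 1 lower in lung over heart, 4 higher in lung over liver, and 2 higher and 1 lower in heart over liver. The red blood cell miRNAs, of which 2 were in the table, summed to 25239 to 66840 in lung, 66906 to 160133 in heart and 4149.8 to 6888 in liver. The heart sums are those of miR-486-5p alone, because miR-144, the other member, was at 0 in all heart libraries. miR-144 was also at 0 in the lung of horses 27, 30 and 32 and in the liver of horses 30 and 34. It was above 0 in the liver of horses 27 and 32.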

How the data were processed

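The authors trimmed and length-filtered the reads, identified miRNAs with sRNAbench against miRBase and the horse assembly EquCab3.0 with a minimum read count of 6, and normalized them with DESeq2. The submitters' notes list DESeq2, BWA, Trimmomatic, FastQC and bcl2fastq, so the trimming tools of both sources differ. The deposited values are a signal, counts that the authors divided by a size factor for each library. The lowest value above 0 was taken as 6 reads, which brought all values of a library within 0.01 of a whole number of reads. The step of a single read is not itself seen in the table, so these reads are implied. Columns with the fold changes and test values of a comparison made by the authors were left out. No count model was run.

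Tests covered the 256 of 294 known miRNAs that reached 10 normalized counts in 4 libraries or more, and were run with limma 3.58.1 in R 4.3.3 on log2(normalized count + 1), fitting a mean for each tissue to all 12 libraries together, with a variance trend and Benjamini-Hochberg adjustment. Fold changes are on this scale. The fit was tested on simulated data. The 18-base entry was tested over all entries. Ratios within a library, with a pseudocount of 1, were compared with exact two-sided permutation tests. They were chosen after the members were known, since the ratios first planned needed miR-148b-3p or miR-152. Other steps were run in Python 3.11.15 with scipy 1.17.1, pandas 2.3.3, matplotlib 3.10.9 and numpy 2.4.6.

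The members and lists were chosen with earlier results of these data known. Named miRNAs were the members, the 5 most like each member (for miR-148b-5p this was decided after the members were known), miR-128 and, of the lists of offset seed, DNA methyltransferase and lipoprotein miRNAs, those called in all 3 comparisons (0 were) or with the highest mean. The spread with equal totals was added after seeing the data.

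The same number marks the same horse. The deviations from the tissue means of libraries of 1 horse correlated at -0.27 to 0.15 over 12 pairs of libraries (36 pairs of different horses: -0.27 to 0.36). The alternatives were pseudocounts of 0.5 and 10, other filters, 4 other scalings, the horse as a replicate block, no fold minimum, all entries, and each horse or library left out.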

Additional observations from a re-analysis of the deposited data

How the results depend on the processing

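miR-148a kept its direction and its call against liver in lung and in heart under all alternatives run (lung -2.63 to -1.71 and heart -3.13 to -2.32 without a horse or library). Its lung over heart difference was called with equal totals (2.02), equal totals without the miRNAs above 10% (1.19) and miR-128 scaling (1.12), and was 0.25 to 1.23 without a horse or library. For miR-148b-5p, equal totals gave calls in lung over heart (1.80) and heart over liver (-1.73), equal totals without the miRNAs above 10% (-1.38) and no fold minimum (-0.54) gave the heart over liver call, and lung over liver changed sign with equal totals (0.068), miR-128 (0.23), without the lung of horse 27 (0.046) and without the liver of horse 32 (0.031). Without a horse or library, miR-148b-5p ranged from 0.34 to 0.58, -0.18 to 0.046 and -0.63 to -0.42 in lung over heart, lung over liver and heart over liver. The 18-base entry changed sign in lung over heart without the lung of horse 27 (-0.035, with a range of -0.035 to 0.40 without a horse or library), and was called in lung over liver with TMM (-1.01), without the miRNAs above 10% (-1.33) and with no fold minimum. miR-30c changed sign in lung over heart with equal totals (0.11). The log2 ratio of miR-148a to miR-148b-5p was -0.0088 to 0.75, -2.55 to -1.67 and -2.54 to -1.69 in the same order of comparisons without a horse. It changed sign in lung over heart without horse 32 (-0.0088), and 3 against 3 libraries cannot pass 0.05. Apart from the scalings themselves the cause of these changes was not tested. The number of known miRNAs called was 99 in lung over heart, 132 in lung over liver and 120 in heart over liver, 97, 131 and 116 with the replicate block, and 87 to 104, 115 to 135 and at least 102 without a horse or library. The block left the calls of both members, of the 18-base entry and of the called list miRNAs other than miR-29a as they were. Count models on whole reads were not run. The minimum read count set by the authors limited the table to features with at least 6 reads in a library.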
